A study of Mus musculus with 6 samples.

Results

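ADAMTSL genes and the ADAMTS genes linked to microfibrils were followed in RNA sequencing of limb bone perichondrium, the connective tissue sheath around cartilage, from mice at postnatal day 4. The 9 genes were chosen by symbol in the GENCODE M21 annotation, and each had a row in the deposited matrix of 55536 genes. They are Adamtsl1, Adamtsl2, Adamtsl3, Adamtsl4, Adamtsl5, Thsd4, Adamts6, Adamts10 and Adamts17. The single comparison of the study sets 3 libraries of genotype Fbn1Scx-/- against 3 WT libraries of the same tissue and age. The labels name the Cre only as ScxCRE or Koscx, the scleraxis-driven recombinase of tendon and ligament cells, so cells of the perichondrium that never expressed scleraxis would keep Fbn1. The libraries are called mut-596 (Fbn1Scx-/-) and WT-596, mut-597 and WT-597, and mut-795 and WT-795, after the numbers in their titles, and values of a group are listed in that order. The labels explain neither these numbers nor whether the libraries are of different animals. The p-values therefore measure library-to-library spread, which may be technical.

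Fibrillin-1, the product of Fbn1, assembles outside the cell into microfibrils, which give tissues elasticity and hold latent TGFβ complexes. ADAMTS proteins are secreted zinc proteases with thrombospondin type 1 repeats, and ADAMTSL proteins carry the same repeats without the protease domain. Several members of both groups bind fibrillin-1 or help it to form fibrils. In humans, variants in FBN1 itself, ADAMTSL2, ADAMTS10 and ADAMTS17 cause short stature syndromes with stiff joints, the growth phenotype opposite to the long bones of Marfan syndrome.

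Total counts lay between 7209217 and 9720268 in Fbn1Scx-/- libraries and between 8019248 and 10316017 in WT libraries. The 9 genes together held 601 to 838 counts in an Fbn1Scx-/- library and 666 to 917 in a WT library. Fbn1, the deleted gene, fell to 7.96 ± 1.81 CPM in Fbn1Scx-/- libraries, against 89.1 ± 28.1 CPM in WT libraries (SD, n = 3 each), where CPM are counts relative to library size, scaled by the TMM method. Its edgeR adjusted p was 1.03e-04 at a log2 fold change of -3.48, and 0.104 with a covariate for Xist, a transcript of female cells with 6221 counts in mut-596, 4024 in mut-597 and at most 4 elsewhere. The log2 fold change of Fbn1Scx-/- over WT was lower for transcripts of higher GC content (Spearman rho = -0.62 across 15701 genes, which are not independent of each other). WT-795 stood apart from the other WT libraries, and leaving it out changed the number of genes past the adjusted threshold of 0.05 from 1 to 1517. Fibroblast and perichondrium markers summed to 35460 to 37420 CPM in Fbn1Scx-/- libraries and 36900 to 38140 CPM in WT libraries, mostly from Col1a1, Col1a2 and Col3a1. Of the 10 markers, 8 had a log2 fold change above 0 and 2 below. Postn was also abundant in every library, but Thy1 was at 10.9 to 18.0 CPM. Clec3b had 15.2, 12.15 and 15.3 CPM in the Fbn1Scx-/- libraries, against 34.9, 35.6 and 15.7 CPM in the WT libraries. Col1a1 had 6863, 7638 and 5213 CPM, against 9283, 13030 and 7118 CPM, so the similar sums do not show that each marker was level. Epidermis markers summed to 7.92 to 9.30 CPM in Fbn1Scx-/- libraries and 8.04 to 14.1 CPM in WT libraries, with Krt5 and Krt10 detected in every library and Krt14 at 0 counts in each.

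None of the 9 genes passed the edgeR test over all 15712 genes tested, of which 0.00636% passed. Adamtsl1 was at a higher level and Adamtsl4 at a lower level in Fbn1Scx-/- libraries on average, and these 2 genes had an unadjusted edgeR p under 0.05, against 10.5% of all genes tested (3.37% higher and 7.12% lower in Fbn1Scx-/- libraries). DESeq2 likewise passed 0 members after adjustment and the same 2 genes before it. The authors' deposited table of 1643 genes lists these 2 members, Adamtsl1 at a log2 fold change of 0.64 and Adamtsl4 at -0.95. The values of that table equal those of a DESeq2 fit of the deposited counts within 1e-04 for the 1609 genes matched, and each of these had an unadjusted DESeq2 p of at most 0.04996. Over all genes, 5.13% had an unadjusted DESeq2 p under 0.05. Adamtsl2 did not pass the filter on low counts and is described by its counts. Of the 8 tested genes, 6 had a log2 fold change above 0 and 2 below, with a median of 0.14 beside 0.01 over all genes tested. In bulk tissue, fewer cells of a type and less RNA per cell cannot be told apart. No annotated gene shared exon bases with any of the 9 members.

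**Figure D1:**
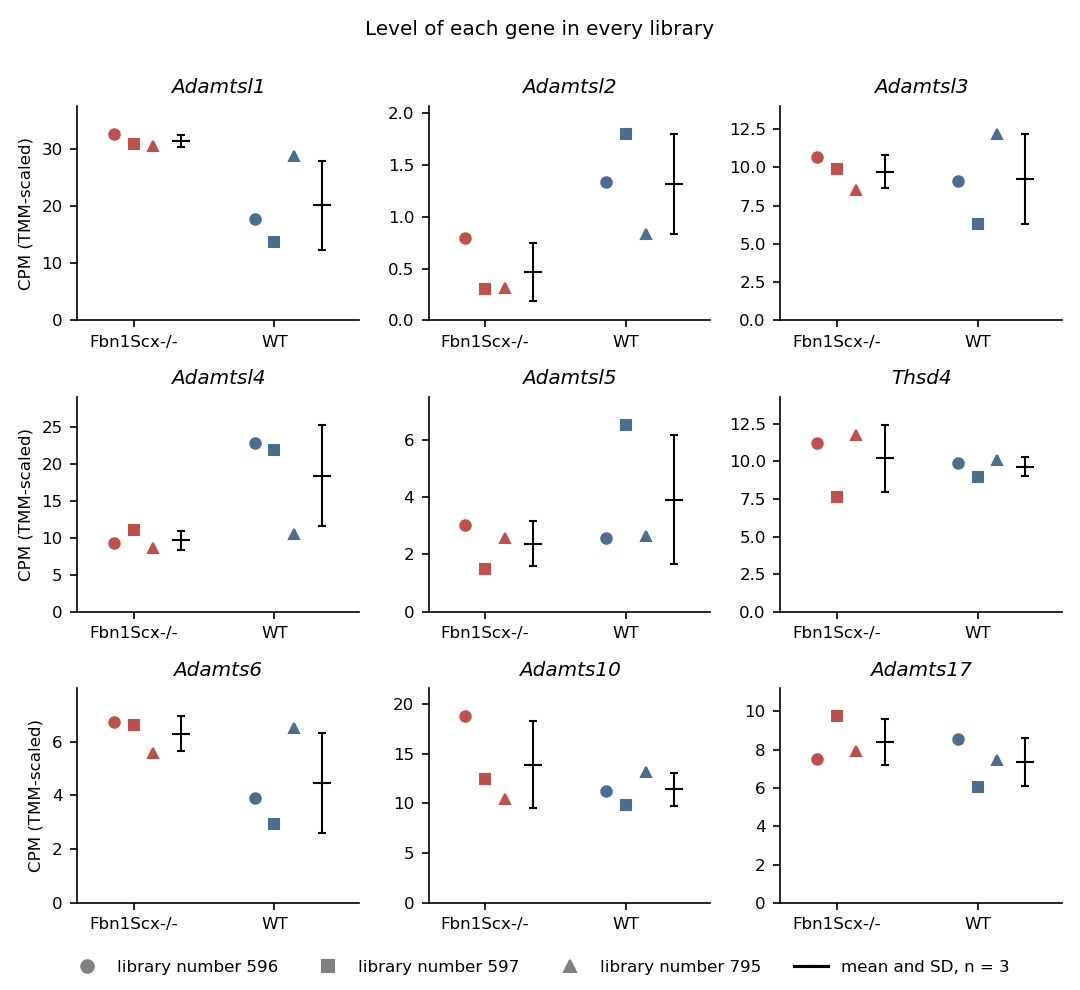
Level of each of the 9 genes in every library, in TMM-scaled CPM on axes that start at 0, with Fbn1Scx-/- libraries left of WT libraries and the mean and SD of each group in black (n = 3). For Adamtsl1 and Adamtsl4 the triangle of WT-795 lies near the Fbn1Scx-/- libraries and away from WT-596 and WT-597.

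Adamtsl4 encodes a secreted glycoprotein that binds fibrillin-1 and promotes its fibril assembly, and in humans its loss displaces the lens of the eye. It is a minus-strand gene of chromosome 3 (GRCm38 start 95676201, end 95687917). It had 9.24, 11.1 and 8.64 CPM in the Fbn1Scx-/- libraries, against 22.8, 21.9 and 10.5 CPM in the WT libraries. These levels rest on 70, 74 and 84 counts in the Fbn1Scx-/- libraries and 240, 232 and 76 counts in the WT libraries. WT-596 and WT-597 stood at about the same high level, while WT-795 lay below mut-597, so the groups overlapped. The mean was 9.66 ± 1.28 CPM in Fbn1Scx-/- libraries and 18.4 ± 6.83 CPM in WT libraries (SD, n = 3 each). The log2 fold change was -0.94 (SE 0.30, 95% interval -1.58 to -0.31), with an unadjusted edgeR p of 0.00664 and an adjusted p of 0.459. With WT-795 left out it was -1.23 (SE 0.24) and Adamtsl4 passed, at an edgeR adjusted p of 0.0123. WT-795 was the lowest WT library for this gene, so leaving it out had to widen the difference. In that fit 9.08% of all genes passed. The longest transcript of Adamtsl4 has a GC content of 60.1%, above the median of 49.1% of all genes tested. With a correction for GC content the log2 fold change was -0.50 (SE 0.23, edgeR adjusted p = 0.757), and without WT-795 as well it was -0.66 (edgeR adjusted p = 0.163).

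Among genes outside the family, Cyb5r3, Ap1m1 and BC017158 had the pattern most like that of Adamtsl4 over the 6 libraries. The measure was the root mean square difference of log2 CPM after each gene was centred on its own mean, and it was 0.0647, 0.0759 and 0.0804 for these 3 genes. Cyb5r3, the gene of an NADH-cytochrome b5 reductase, had 55.1, 61.6 and 45.7 CPM in the Fbn1Scx-/- libraries, against 123.5, 114.1 and 55.0 CPM in the WT libraries. As with Adamtsl4, its level in WT-795 lay within the range of the Fbn1Scx-/- libraries.

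Adamtsl1, also called punctin, encodes a matrix protein made of thrombospondin repeats, and its gene spans the plus strand of chromosome 4 from 85514172 to 86428385. It had 32.6, 30.9 and 30.6 CPM in the Fbn1Scx-/- libraries, against 17.8, 13.7 and 28.8 CPM in the WT libraries. The Fbn1Scx-/- libraries lay close together and above every WT library, although WT-795 came near them. Of all genes tested, 11.9% had groups that did not overlap, 5.66% with Fbn1Scx-/- above WT. The mean was 31.4 ± 1.11 CPM in Fbn1Scx-/- libraries and 20.1 ± 7.83 CPM in WT libraries (SD, n = 3 each), with a log2 fold change of 0.65 (SE 0.27, 95% interval 0.08 to 1.22). The unadjusted edgeR p was 0.0279 and the adjusted p 0.459. With WT-795 left out, Adamtsl1 passed at 0.97 (SE 0.23, edgeR adjusted p = 0.0235). Leaving out WT-795 had to widen the difference, as it was the highest WT library for Adamtsl1. The GC content of its longest transcript was 53.3%, and with the GC correction its log2 fold change was 0.81 (SE 0.29, edgeR adjusted p = 0.757). With the GC correction and without WT-795 it was 1.26 (SE 0.23, edgeR adjusted p = 0.0174), a fit in which 1.05% of all genes passed. With any other single library left out the unadjusted edgeR p of Adamtsl1 was not under 0.05, its log2 fold change being lowest without WT-597, at 0.42, whereas that of Adamtsl4 was under it with each of the 6 libraries left out. Without WT-795 and without the correction, 9.08% of all genes passed.

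The mean differences of Adamtsl1 and Adamtsl4 had opposite signs, and the ratio of their counts, chosen after their values were seen and given without a test, does not depend on the scaling of a library. It is not corrected for GC content, which differs between their longest transcripts, at 53.3% for Adamtsl1 and 60.1% for Adamtsl4. There were 3.53, 2.78 and 3.54 Adamtsl1 counts for each Adamtsl4 count in the Fbn1Scx-/- libraries, against 0.779, 0.625 and 2.74 in the WT libraries. WT-795 was close to mut-597 and far from the other WT libraries. Adamtsl4 took 9.19% (95% Wilson interval 7.34% to 11.5%), 12.3% (9.92% to 15.2%) and 10.02% (8.17% to 12.2%) of all counts of the 9 genes in the Fbn1Scx-/- libraries. In the WT libraries it took 26.2% (23.4% to 29.1%), 28.1% (25.1% to 31.3%) and 11.4% (9.21% to 14.1%). These intervals cover counting error only. The summed level of the 9 genes was 92.3 ± 7.44 CPM in Fbn1Scx-/- libraries and 85.8 ± 7.27 CPM in WT libraries (SD, n = 3 each), with overlapping ranges.

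Marker sums of other cell types moved with the libraries in part. Chondrocyte markers summed to 3000, 2977 and 2928 CPM in the Fbn1Scx-/- libraries, against 2027, 2113 and 3303 CPM in the WT libraries, of which Col11a1 made up most. In that list 6 of 8 measured genes had a log2 fold change above 0 and none passed. Col2a1 and Acan were lower on average in Fbn1Scx-/- libraries. Col2a1 had 48.1, 94.8 and 103.4 CPM there, against 116.2, 79.8 and 149.8 CPM in the WT libraries. Acan had 75.9, 91.8 and 68.9 CPM, against 103.1, 138.4 and 101.3 CPM. Skeletal muscle markers summed to 2104, 4136 and 3847 CPM in the Fbn1Scx-/- libraries, against 3826, 9322 and 2823 CPM in the WT libraries, and all 10 had a log2 fold change below 0. With a covariate for the chondrocyte markers Adamtsl1 was at 0.53 and Adamtsl4 at -0.65, both with an unadjusted edgeR p under 0.05. With one for the muscle markers they were at 0.39 and -0.59, and 0 members had an unadjusted edgeR p under 0.05. With the Xist covariate they were at 0.61 (SE 0.38) and -1.10 (SE 0.47). Of the members, only Adamtsl4 then had an unadjusted edgeR p under 0.05. Of all 15712 genes, 1238, 439 and 490 had such a p in these fits, in that order. Schwann cell markers had the largest median log2 fold change of the lists, 0.85, with 4 of 5 above 0. Of these, Mbp had 19.5, 18.3 and 6.89 CPM in the Fbn1Scx-/- libraries, against 5.79, 5.66 and 1.25 CPM in the WT libraries. Sox10 went the other way, at 0.264, 1.5 and 0.411 CPM against 1.71, 2.27 and 0.554 CPM. The Schwann cell sum, mostly Pmp22, was 315.1, 302.2 and 204.2 CPM in the Fbn1Scx-/- libraries. In the WT libraries it was 223.6, 208.4 and 216.2 CPM, so the ranges overlapped. Osteoblast markers had a median of -0.43 with 7 of 8 below 0. Of these, Bglap had 16.9, 29.4 and 18.2 CPM in the Fbn1Scx-/- libraries, against 51.9, 32.5 and 14 CPM in the WT libraries, and Ifitm5 had 17.8, 36 and 26.6 CPM in the Fbn1Scx-/- libraries, against 79.4, 64.6 and 23.7 CPM in the WT libraries. For both genes WT-795 was the lowest WT library and lay within or below the range of the Fbn1Scx-/- libraries. Bglap2, Sp7 and Alpl had the same placing. For Ibsp WT-795 was not the lowest WT library, and for Runx2 and Dmp1 it was the highest. The osteoblast sum was 1809, 2466 and 2364 CPM in the Fbn1Scx-/- libraries, against 2581, 2174 and 2331 CPM in the WT libraries, with overlapping ranges. Medians were -0.29 for tendon and ligament, 0.20 for endothelial, -0.33 for myeloid and osteoclast, -0.24 for epidermis and 0.17 for adipocyte markers. The part of these cell types in the values of the family was not tested.

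Adamtsl2, whose human counterpart is mutated in geleophysic dysplasia and whose protein binds fibrillin-1 and LTBP1, was scarce. Its gene lies on the plus strand of chromosome 2, from 27079379 to 27108981. It had 6, 2 and 3 counts in the Fbn1Scx-/- libraries, against 14, 19 and 6 counts in the WT libraries. These are 0.792, 0.30 and 0.309 CPM in the Fbn1Scx-/- libraries and 1.33, 1.79 and 0.831 CPM in the WT libraries. Every WT library lay above every Fbn1Scx-/- library, by a narrow margin between WT-795 and mut-596, as for 6.22% of all genes tested. With no filter on low counts the log2 fold change was -1.52 (SE 0.68, 95% interval -2.86 to -0.18), with an unadjusted edgeR p of 0.0263 and an adjusted p of 0.429. In that fit 9.22% of all genes had an unadjusted p under 0.05, and a gene's own spread between libraries had almost no weight. DESeq2 gave an unadjusted p of 0.0709 and no adjusted p for this gene.

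Thsd4, also called Adamtsl6, encodes a protein that binds fibrillin-1 and promotes microfibril assembly in mouse tissues. It is a minus-strand gene of chromosome 9 (start 59966931, end 60522046). It had 11.2, 7.65 and 11.7 CPM in the Fbn1Scx-/- libraries, against 9.88, 8.96 and 10.1 CPM in the WT libraries. The WT libraries lay within the range of the Fbn1Scx-/- libraries, and WT-795 did not stand apart. The log2 fold change was 0.09 (SE 0.26, 95% interval -0.47 to 0.65, edgeR adjusted p = 0.891), and its sign changed with the muscle covariate and without mut-596 or mut-795.

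Start regions of 3 members are shown, for the 2 genes with the most negative log2 fold changes (Adamtsl2, Adamtsl4) and for 1 near 0 (Thsd4). The members with the most positive values, Adamtsl1, Adamts6 and Adamts10, are not shown. They are the 250 bases before the annotated start, read on the gene's strand from the RefSeq table of build GRCm38.p6, which held an entry for 6 of the 9 genes. The windows are chr3:95687918-95688167 on the minus strand for Adamtsl4 and chr2:27079129-27079378 on the plus strand for Adamtsl2. For the upstream of the 2 listed starts of Thsd4 the window is chr9:60511036-60511285 on the minus strand. In GENCODE the minus-strand gene Thsd4 reaches to 60522046, so its window lies inside the gene and not before its outermost start. Capitals mark CAGAC or its reverse complement GTCTG, the core of the SMAD box, searched because the title of the series concerns TGFβ.
Adamtsl4: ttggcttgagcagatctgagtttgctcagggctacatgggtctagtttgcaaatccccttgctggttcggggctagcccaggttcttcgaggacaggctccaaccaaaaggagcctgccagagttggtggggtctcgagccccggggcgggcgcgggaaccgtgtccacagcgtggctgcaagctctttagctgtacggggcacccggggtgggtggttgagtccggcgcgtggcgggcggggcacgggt
Adamtsl2: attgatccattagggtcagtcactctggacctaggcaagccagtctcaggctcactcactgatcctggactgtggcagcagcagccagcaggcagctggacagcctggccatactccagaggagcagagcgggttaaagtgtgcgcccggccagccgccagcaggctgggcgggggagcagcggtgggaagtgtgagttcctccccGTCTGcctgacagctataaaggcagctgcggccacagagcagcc
Thsd4: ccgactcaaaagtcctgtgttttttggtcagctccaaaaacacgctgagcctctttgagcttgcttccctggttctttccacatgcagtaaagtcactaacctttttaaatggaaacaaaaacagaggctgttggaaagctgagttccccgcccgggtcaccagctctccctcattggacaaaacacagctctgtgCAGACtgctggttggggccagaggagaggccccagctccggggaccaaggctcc
The core had 0 matches in the window of Adamtsl4, 1 in that of Adamtsl2 and 1 in that of Thsd4. Of 32851 promoter windows of this length, 42.2% hold at least 1. In the other listed windows of the family the core had 1 match for Adamtsl5 and 0 for Adamtsl3, Adamts17 and the other start of Thsd4. The GC box GGGCGG or CCGCCC had 2 matches for Adamtsl4, 1 for Adamtsl2 and 1 for Thsd4, beside 32.7% of windows with at least 1. In the other listed windows it had 4 for Adamtsl3, 1 for Adamtsl5 and 0 for Adamts17 and the other start of Thsd4. TATAAA or TTTATA had 1 match, in Adamtsl2, beside 12.4% of windows, and the AP-1 site TGANTCA had 0 matches in the 3 windows, beside 6.75%. The GC content of these windows was 64.4% for Adamtsl4, 62.8% for Adamtsl2 and 52.8% for Thsd4, with a median of 52.4% over all windows. A match is a run of letters and no evidence of binding.

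The other 2 ADAMTSL genes had overlapping groups. Adamtsl3, also called punctin-2 and linked in humans to height by common variants (chromosome 7, plus strand, start 82335694, end 82614450), had 10.7, 9.90 and 8.54 CPM in the Fbn1Scx-/- libraries, against 9.12, 6.32 and 12.2 CPM in the WT libraries. Its log2 fold change was 0.08 (SE 0.29, 95% interval -0.53 to 0.70), and the highest and the lowest value were both in WT libraries. Adamtsl5, whose protein binds fibrillin-1 and heparin (chromosome 10, minus strand, start 80339110, end 80348412), had 3.04, 1.5 and 2.57 CPM in the Fbn1Scx-/- libraries, against 2.56, 6.51 and 2.63 CPM in the WT libraries. The one high value was that of WT-597, in which the muscle marker sum was also highest, and the other 5 libraries lay between 1.5 and 3.04 CPM. The log2 fold change of Adamtsl5 was -0.72 (SE 0.45, 95% interval -1.68 to 0.24), and -0.14 without WT-597.

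The 3 proteases were each at a higher mean level in Fbn1Scx-/- libraries and none passed. Adamts10, the Weill-Marchesani syndrome gene whose protein binds fibrillin-1 (chromosome 17, plus strand, start 33524204, end 33553782), had 18.8, 12.4 and 10.4 CPM in the Fbn1Scx-/- libraries, against 11.2, 9.81 and 13.2 CPM in the WT libraries. One library, mut-596, was high and the others overlapped. The log2 fold change was 0.28 (SE 0.27, 95% interval -0.30 to 0.87), and it was -0.02 without mut-596, 0.17 without WT-597 and 0.65 (SE 0.31) with the GC correction. The GC content of its longest transcript, 58.5%, was close to that of Adamtsl5 at 58.0%.

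Adamts6, the closest relative of Adamts10 (chromosome 13, plus strand, start 104287835, end 104496695), had 6.73, 6.599 and 5.55 CPM in the Fbn1Scx-/- libraries, against 3.89, 2.93 and 6.51 CPM in the WT libraries. As for Adamtsl1, WT-795 lay with the Fbn1Scx-/- libraries and the other 2 WT libraries lay below them. Its log2 fold change was 0.52 (SE 0.34, 95% interval -0.21 to 1.25). Without WT-795 it was 0.86 (SE 0.34), with an unadjusted edgeR p of 0.0224 and an adjusted p of 0.109. Without WT-597 it was 0.27. Its GC content, 43.0%, was the lowest of the family, and with the GC correction the log2 fold change was 0.27 (SE 0.29).

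Adamts17, a second Weill-Marchesani syndrome gene, whose protease cleaves itself (chromosome 7, plus strand, start 66839735, end 67153171), had 7.53, 9.75 and 7.92 CPM in the Fbn1Scx-/- libraries, against 8.55, 6.04 and 7.48 CPM in the WT libraries. The ranges overlapped, and no library lay far from the rest. Its log2 fold change was 0.19 (SE 0.27, 95% interval -0.40 to 0.77).

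**Figure D2:**
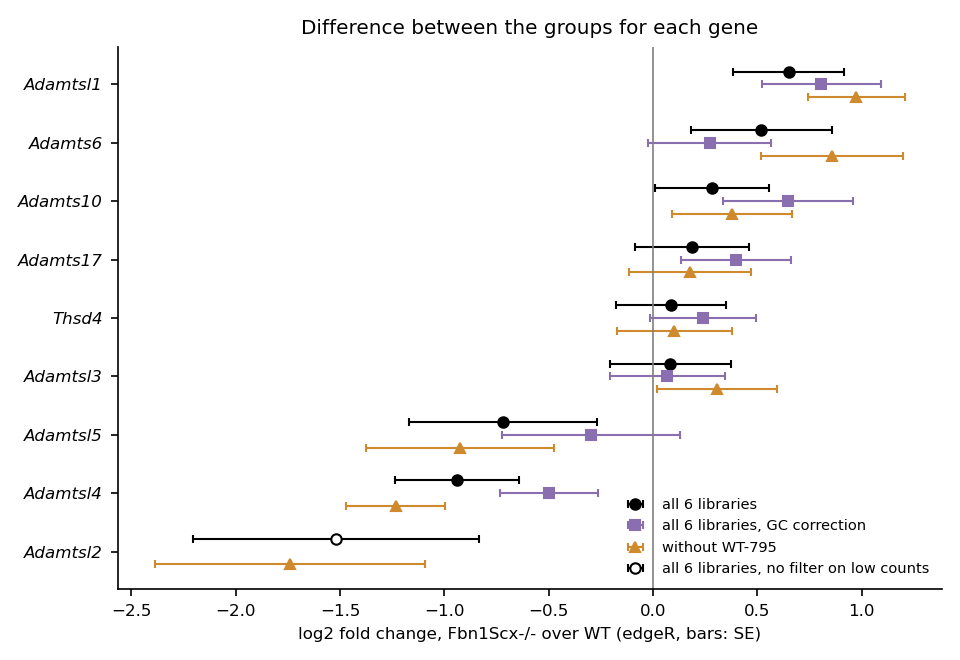
Log2 fold change of Fbn1Scx-/- over WT for each gene with its SE, over all 6 libraries, with a GC correction and without WT-795, and for Adamtsl2 over all 6 libraries without a filter on low counts (open circle). Adamtsl4 lies at -0.94 over all libraries, at -0.50 with the GC correction and at -1.23 without WT-795, and Adamtsl1 at 0.65, 0.81 and 0.97.

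The members did not all follow the GC trend of all genes. Adamtsl4 and Adamtsl5, at 60.1% and 58.0%, had negative log2 fold changes and moved toward 0 with the GC correction, to -0.50 and -0.30. Adamts6, at 43.0%, had a positive one that moved toward 0. For Adamtsl1, Adamts10 and Adamts17, at 53.3%, 58.5% and 54.0%, the corrected values were further from 0, at 0.81, 0.65 and 0.40. With the correction the median of the 8 genes was 0.25, beside -0.01 over all genes, and Adamtsl1 was the 1 member whose unadjusted edgeR p was under 0.05, against 6.27% of all genes.

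**Figure D3:**
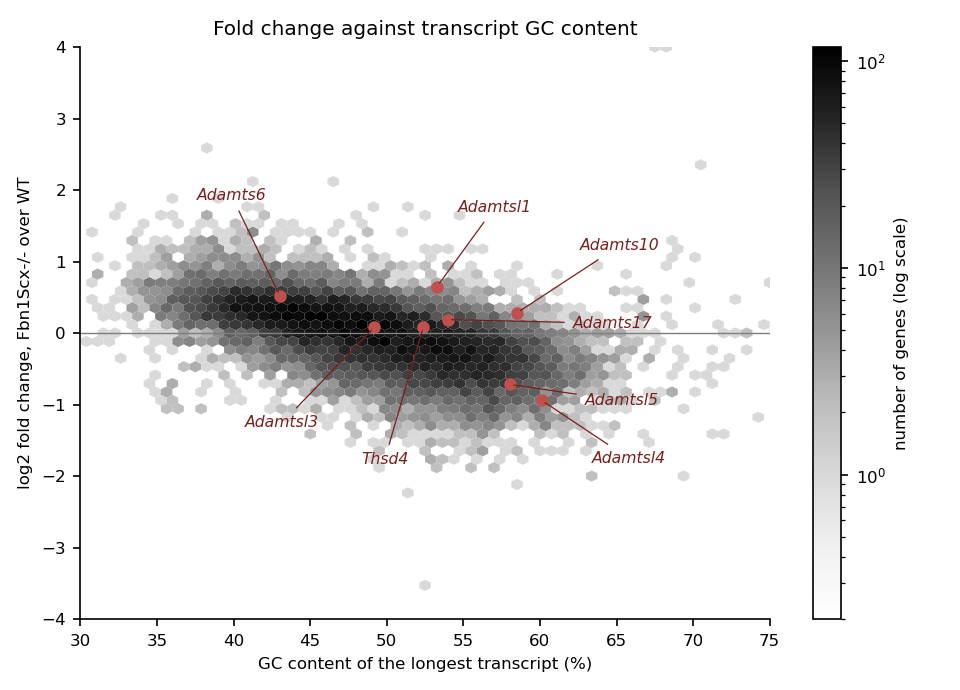
Log2 fold change of Fbn1Scx-/- over WT against the GC content of the longest transcript, with all tested genes within the axes as grey hexagons (shade on a log scale) and the 8 tested members in red. Adamtsl1 and Adamts10 lie above the falling trend, at 0.81 (SE 0.29) and 0.65 (SE 0.31) with the GC correction. Adamtsl4 and Adamtsl5 lie below 0 at high GC content, and with the correction at -0.50 (SE 0.23) and -0.30 (SE 0.43).

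Levels can be compared between genes once divided by exon length. In Fbn1Scx-/- libraries Adamtsl1 came first at 2.46 ± 0.09 CPM per kb, followed by Adamtsl4 at 2.30 ± 0.31, Adamts10 at 1.68 ± 0.53 and Adamtsl3 at 1.25 ± 0.14 CPM per kb (SD, n = 3), with overlapping ranges from each to the next. In WT libraries Adamtsl4 led at 4.39 ± 1.63 CPM per kb, followed by Adamtsl1 at 1.57 ± 0.61, Adamts10 at 1.38 ± 0.20 and Adamtsl3 at 1.19 ± 0.38 CPM per kb (SD, n = 3). In WT libraries the ranges of Adamtsl4 and Adamtsl1 per kb of exon length did not overlap, and those of the other neighbours among these genes did. Adamts17, Adamtsl5, Thsd4 and Adamts6 came next in both groups, between 0.50 and 1.08 CPM per kb on average in Fbn1Scx-/- libraries and between 0.57 and 0.95 in WT libraries, and in WT libraries each neighbour in this order overlapped the next. In Fbn1Scx-/- libraries the order was Adamts17, Adamts6, Thsd4 and Adamtsl5, and the ranges of Adamts17 and Adamts6 did not overlap. Adamtsl2 was lowest, at 0.0584 ± 0.0353 CPM per kb in Fbn1Scx-/- libraries and 0.165 ± 0.0602 in WT libraries, and its ranges did not overlap those of the next gene in either group. By the length of the longest transcript the same genes came first in each group, with Adamts10 second in both. On that scale Adamtsl1 lay above Adamtsl4 in WT-795, so the WT ranges of these genes overlapped. For scale, Fbn1 itself had 0.556 to 0.828 CPM per kb in Fbn1Scx-/- libraries and 5.23 to 9.83 CPM per kb in WT libraries.

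**Figure D4:**
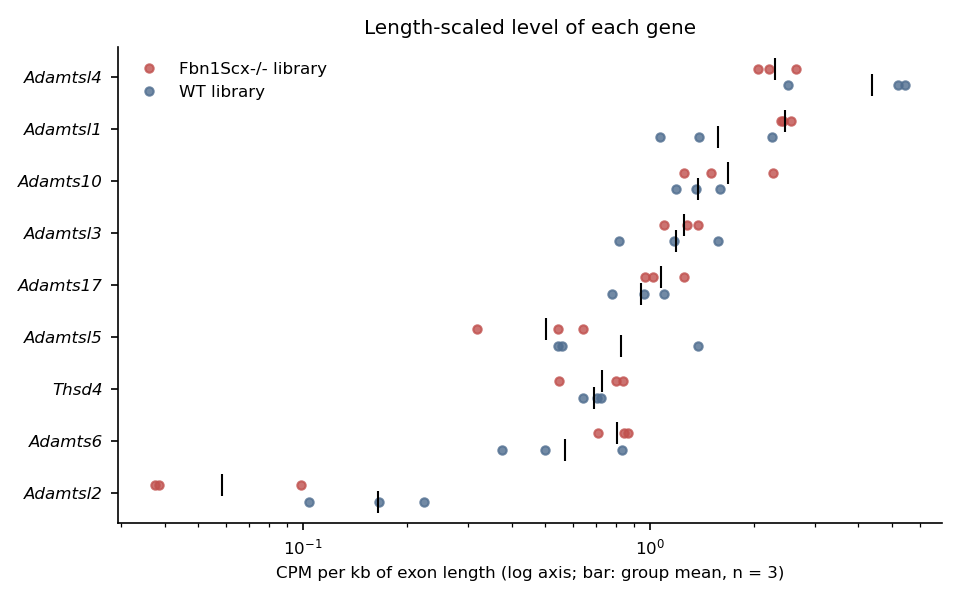
Level of each gene per kb of exon length in every library (log axis), with Fbn1Scx-/- libraries above WT libraries and black bars at the group means (n = 3), ordered by the WT mean. Adamtsl4 leads in WT at 4.39 CPM per kb and Adamtsl2 is lowest in both groups.

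Among the partners of the family in the microfibril, Fbn1 was the 1 of 9 genes that passed, and 7 of 9 lay below 0 with a median of -0.55, or -0.18 with the GC correction. The latent TGFβ binding protein gene Ltbp4 had 10.3, 23.4 and 15.3 CPM in the Fbn1Scx-/- libraries, against 44.8, 49.9 and 17.6 CPM in the WT libraries, the same placing of WT-795 as for Adamtsl4. Its log2 fold change was -1.21 (SE 0.36), and without WT-795 it was -1.56 (edgeR adjusted p = 0.00859). With no filter on low counts Ltbp4 also passed at -1.23 (SE 0.26, edgeR adjusted p = 0.00127), as did 270 of all 31958 genes. A gene's own spread between libraries had almost no weight in that fit. The microfibril glycoprotein gene Mfap2 was at -0.71, Ltbp2 at -0.70 and Ltbp3 at -0.55, each with an edgeR adjusted p of 0.459. Without WT-795, where 9.08% of all genes passed, Mfap2 and Ltbp3 also passed, at edgeR adjusted p of 0.0249 and 0.0437. With the GC correction and without WT-795 Fbn1 alone of this list passed, with Ltbp4 at -0.996 (edgeR adjusted p = 0.0528), Mfap2 at -0.33 (0.408) and Ltbp3 at -0.18 (0.679). With the GC correction and all libraries Ltbp4 was at -0.76, Mfap2 at -0.32, Ltbp2 at -0.32 and Ltbp3 at -0.18, the transcripts being of 58.3% to 62.2% GC.

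Of the other ADAMTS proteases 14 of 16 were tested, with 9 above 0, 5 below, a median of 0.13 (0.24 with the GC correction) and none past the threshold. The aggrecan- and versican-cleaving protease gene Adamts5 had 118.1, 65.5 and 66.8 CPM in the Fbn1Scx-/- libraries, against 42.0, 50.3 and 54.5 CPM in the WT libraries. Every Fbn1Scx-/- library lay above every WT library, with mut-596 highest, and the log2 fold change was 0.77 (SE 0.26, edgeR adjusted p = 0.459), or 0.42 without mut-596 and 0.52 with the GC correction. Adamts19 and the versican protease gene Adamts9 were at 0.98 and 0.55, and Adamts19 was at 0.52 without mut-596. With the Xist covariate Adamts5 was at 0.45 (SE 0.36), Adamts19 at 0.41 (SE 0.51) and Adamts9 at 0.56 (SE 0.35). These 3 of 14 genes had groups that did not overlap with Fbn1Scx-/- above WT, beside 5.66% of all genes tested. Adamts8 was at -0.66. No gene of this list passed without WT-795.

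Genes for secretion and processing of thrombospondin-repeat proteins were tested for 8 of 9 members, with 5 above 0, 3 below, a median of 0.15 (0.03 with the GC correction) and none past the threshold. Pofut2 encodes the enzyme that adds fucose to thrombospondin repeats, a step ADAMTS and ADAMTSL proteins need for secretion. It had 25.1, 47.8 and 41.8 CPM in the Fbn1Scx-/- libraries, against 95.3, 86.6 and 38.2 CPM in the WT libraries. The log2 fold change of Pofut2 was -0.94 (SE 0.32, edgeR adjusted p = 0.459), with WT-795 again inside the range of the Fbn1Scx-/- libraries. Without WT-795, where 9.08% of all genes passed, Pofut2 passed at -1.27 (edgeR adjusted p = 0.0128), as did the proprotein convertase gene Pcsk6 at -0.80 (edgeR adjusted p = 0.0458). With the GC correction and without WT-795 neither passed, Pofut2 being at -0.88 (edgeR adjusted p = 0.0733) and Pcsk6 at -0.37 (edgeR adjusted p = 0.423). With no filter on low counts Pofut2 passed at -0.97 (SE 0.25, edgeR adjusted p = 0.0195), as did 270 of all 31958 genes in that fit. Over all libraries Pcsk6 was at -0.62, Dpy19l1, a gene of protein mannosylation, at 0.40, and Timp3, whose protein inhibits ADAMTS proteases, at 0.41. With the GC correction and all libraries Pofut2 was at -0.64, Pcsk6 at -0.32, Dpy19l1 at 0.11 and Timp3 at 0.31.

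**Figure D5:**
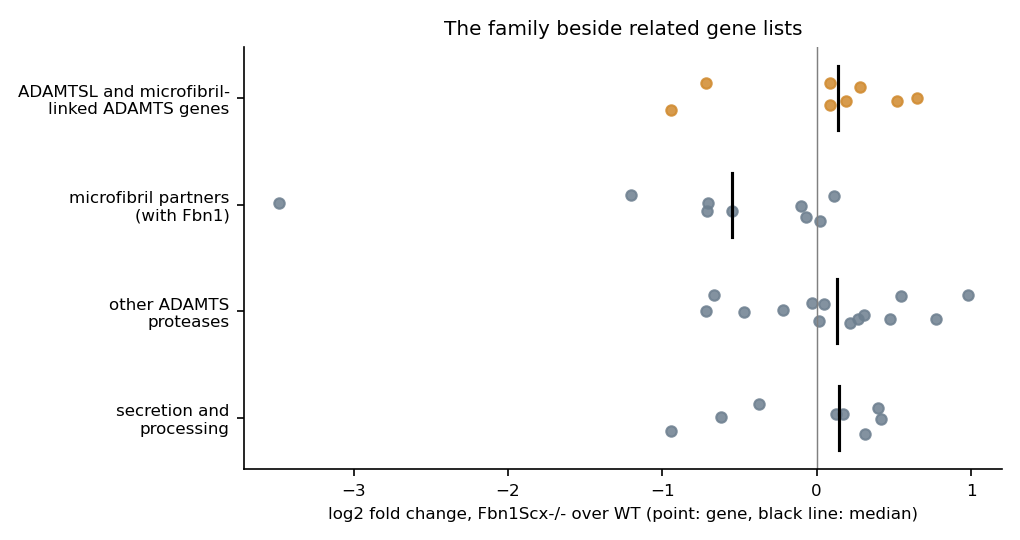
Log2 fold change of Fbn1Scx-/- over WT for each tested gene of the family and of 3 related lists, with the median of each list as a black line. The medians are 0.14 for the family, -0.55 for microfibril partners, 0.13 for other ADAMTS proteases and 0.15 for secretion and processing genes, without a GC correction, and the single point below -3 is Fbn1.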

How the data were processed

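The authors deposited unnormalized gene-level read counts, all whole numbers, for 6 libraries made from full-length amplified cDNA, per the labels' protocols. The submitters' processing notes name DESeq2 and the genome build GRCm38.p6. How strand and reads with several matches were treated is not stated. The authors' deposited table holds log2 fold changes of knockout over wild type, with the base judged from a DESeq2 fit, and its summary columns hold 0 and were not used. Symbols, exon lengths and transcript GC content came from GENCODE M21.

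The test was edgeR 4.0.16 (quasi-likelihood, TMM, filterByExpr by group, no covariates) in R 4.3.3, two-sided, with Benjamini-Hochberg adjustment over 15712 genes and a threshold of 0.05. It was tested on simulated counts, drawn independently for each gene around its mean over all libraries. These had no GC trend and no library that stood apart, so the simulation does not bear on those features of the data. The SE is the log2 fold change over the square root of F. Means ± SD are over 3 libraries. Log2 CPM used a prior count of 2. The GC correction gave each library a lowess trend (span 0.3) on GC content as an offset. Alternatives used limma 3.58.1 (voom) and DESeq2 1.42.0, other scalings and filters, covariates, the number shared by titles, and each library left out. The stricter filter asked for 1 CPM in every library of a group.

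Members and lists were chosen with earlier results of these data known. All 9 members are named, and from each related list the genes past the threshold and the 4 next smallest p. The genes of most like pattern were taken for the member with the highest level per length, leaving out symbols that start with Gm or end in Rik. Counting error limits Adamtsl2 most. Perichondrium, tendon, chondrocyte, osteoblast, muscle, endothelial, myeloid, Schwann cell, epidermis and adipocyte marker lists were summed, and no member of any of them passed the test.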

Additional observations from a re-analysis of the deposited data

How the results depend on the processing

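No member passed the adjusted threshold under any alternative that kept all 6 libraries, by edgeR, DESeq2 or limma. With 1 library left out, 0 to 2 members passed, the 2 being Adamtsl1 and Adamtsl4 without WT-795, and 1 passed with the GC correction and without WT-795, a setting chosen after seeing the data. Over all genes, 1 gene passed in the main analysis, 270 with no filter, 4 by DESeq2, 1 to 1517 with a library left out (12 without mut-795), and 175 with the GC correction and without WT-795. With the Xist covariate 0 genes passed by edgeR, 490 at an unadjusted p under 0.05, and Fbn1 was at -3.65. Of the microfibril partners, 2 passed with no filter, 0 with the Xist covariate and 1 to 4 with a library left out, the 4 being without WT-795, and 1 with the GC correction and without WT-795. Of the secretion and processing genes, 1 passed with no filter and 0 to 2 with a library left out, the 2 being without WT-795, and 0 with the GC correction and without WT-795. The cause of these moves was not tested.

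Deviations from the group means correlated at -0.18, 0.24 and -0.20 for same-numbered libraries, beside -0.29 to 0.38 for libraries of different number. With 3 libraries per group this check cannot exclude pairs. The numbers were not taken as pairs in the main analysis. With the replicate block 1 gene passed, and with the replicate block and the GC correction 4 genes passed, with no member among them. With the block Adamtsl4 was at -0.86 and Adamtsl1 at 0.71.

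Adamtsl1, Adamts6 and Adamts17 stayed above 0 and Adamtsl4 and Adamtsl5 below 0 in all 20 settings, and Adamtsl2 below 0 in the 7 settings that kept it. Signs changed for Adamtsl3 with the Xist (-0.10), muscle (-0.18) and chondrocyte (-0.033) covariates, for Thsd4 with the muscle covariate (-0.04) and for Adamts10 with the Xist covariate (-0.13). With a library left out they ranged from -0.15 to 0.31, -0.036 to 0.24 and -0.016 to 0.45. Depth limits Adamtsl2, with at most 6 counts in an Fbn1Scx-/- library.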
